A study of Homo sapiens with 4 samples.

Results

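GPNMB, the 3 MITF/TFE transcription factors MITF, TFEB and TFE3, and 33 other genes, nearly all lysosomal, were followed in HGC27 gastric cancer cells with and without RUNX3. The 37 members were chosen by name. GPNMB was selected on its rise in the same comparison of RUNX3 KO with control cells, so its values are described without a test, and the question put to the other genes was whether that rise came with a rise of lysosomal genes. All 37 symbols were found among the 25559 gene symbols of the count tables. The filter on low counts kept 12967 genes and 36 of the members, and CTSZ, a carboxypeptidase of the lysosome with counts of 0, 1, 1 and 0, was dropped.

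HGC27 (HGC-27) is an established human gastric cancer cell line. RNA-seq was made from 2 libraries of wildtype cells, called control here, and 2 libraries of RUNX3KO cells, called RUNX3 KO. The knockout cells had received a lentivirus that carries Cas9 and a guide RNA to an exon of RUNX3, were selected with puromycin and were cloned from single cells, and how many clones stand behind the libraries was not given, so that the knockout and features of a clone cannot be told apart. No label names an age, a treatment or a time for either group, and the cells were grown in culture with serum throughout. Nor do the labels say that libraries of a group came from separate cultures, so that p-values measure the spread between these libraries, which may be technical.

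GPNMB is a type I membrane glycoprotein, first known from melanoma, melanocytes, macrophages and osteoclasts, that sits in melanosomes and lysosomes and can be shed from the cell surface. MITF, TFEB and TFE3 are related basic helix-loop-helix leucine zipper factors that bind E-box sequences. When mTORC1 on the lysosome surface is less active, TFEB and TFE3 lose inhibitory phosphorylation, enter the nucleus and switch on genes for lysosomal enzymes, membrane proteins, proton pump subunits and autophagy. That control acts on protein location, which RNA counts do not measure.

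Reads counted on genes came to between 11731401 and 12110876 per library. Counts of RUNX3 itself were 351 and 308 in control against 225 and 185 in RUNX3 KO libraries, a log2 fold change of -0.70 (edgeR, adjusted p = 1.43e-09), so RUNX3 RNA was lower but still counted in the RUNX3 KO libraries. The paper reports by immunoblot that its knockout cells lacked RUNX3 protein, which RNA counts do not measure. Of 15 markers of gastric epithelium, 9 were at 0 in all 4 libraries, and EPCAM, a general epithelial marker, had counts of 1, 1, 0 and 0. The list summed to 3.30 and 2.97 CPM (counts relative to library size after TMM scaling) in control against 8.90 and 10.6 CPM in RUNX3 KO libraries. KRT8, a keratin of simple epithelia, made up most of the difference, with 19 and 11 counts against 72 and 81, CDH1 was also higher, with 15 and 21 against 30 and 32 (edgeR, adjusted p = 0.0238), and KRT18 had 0 and 0 against 2 and 14. The part of these markers in the results was not tested. Defining transcripts of the labelled tissue were thus largely absent in both groups.

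Upstream sequence of GPNMB and of 4 lysosomal members is shown because the factors bind E-boxes. The first to be printed, GPNMB, carries the rise that the members were gathered around, and the other 4, CTSA, LAMP1, MCOLN1 and GAA, hold the palindrome TCACGTGA, the core of the CLEAR element that TFEB recognizes. Each sequence is the 250 bases before the annotated start on the plus strand, from RefSeq on GRCh38.p14, at chr7:23246525-23246774 for GPNMB, chr20:45891085-45891334 for CTSA, chr13:113296989-113297238 for LAMP1, chr19:7522374-7522623 for MCOLN1 and chr17:80101331-80101580 for GAA. Capitals mark the E-box CACGTG, the M-box core CATGTG and the RUNX core TGTGGT, where a match on the other strand appears as its reverse complement.
GPNMB: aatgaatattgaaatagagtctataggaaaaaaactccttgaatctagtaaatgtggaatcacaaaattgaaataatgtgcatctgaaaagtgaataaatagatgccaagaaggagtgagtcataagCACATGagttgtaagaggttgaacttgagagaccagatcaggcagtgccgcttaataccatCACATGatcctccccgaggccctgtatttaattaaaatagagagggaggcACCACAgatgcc
CTSA: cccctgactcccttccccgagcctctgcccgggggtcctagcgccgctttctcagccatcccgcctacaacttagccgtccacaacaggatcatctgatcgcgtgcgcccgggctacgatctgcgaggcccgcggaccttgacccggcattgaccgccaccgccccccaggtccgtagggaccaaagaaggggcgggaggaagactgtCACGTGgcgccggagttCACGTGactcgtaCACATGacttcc
LAMP1: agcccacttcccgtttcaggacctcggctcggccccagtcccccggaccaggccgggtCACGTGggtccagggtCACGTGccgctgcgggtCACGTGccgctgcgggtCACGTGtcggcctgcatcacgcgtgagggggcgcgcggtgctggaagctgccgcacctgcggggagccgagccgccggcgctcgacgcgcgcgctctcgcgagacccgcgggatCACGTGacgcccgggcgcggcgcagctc
MCOLN1: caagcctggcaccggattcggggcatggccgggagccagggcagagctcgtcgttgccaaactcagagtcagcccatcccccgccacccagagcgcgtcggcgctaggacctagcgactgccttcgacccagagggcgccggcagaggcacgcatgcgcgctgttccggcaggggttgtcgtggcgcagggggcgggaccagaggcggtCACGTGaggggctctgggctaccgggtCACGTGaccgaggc
GAA: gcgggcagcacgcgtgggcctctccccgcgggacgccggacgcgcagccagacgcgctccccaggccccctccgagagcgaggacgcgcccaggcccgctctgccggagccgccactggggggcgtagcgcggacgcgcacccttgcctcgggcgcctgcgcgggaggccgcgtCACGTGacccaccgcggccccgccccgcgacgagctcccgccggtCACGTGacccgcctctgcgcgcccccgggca

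GPNMB rose 3.50-fold, by far the largest change among the members. GPNMB (ENSG00000136235, chr7:23275586-23314727 on GRCh37, plus strand) was counted 592 and 558 times in control libraries against 1999 and 2059 times in RUNX3 KO libraries. In CPM this was 50.1 and 47.3 against 169 and 171, or 48.7 ± 2.02 against 170.3 ± 1.34 (SD, n = 2). Both RUNX3 KO libraries lay far above both control libraries, with a log2 fold change of 1.81 and an SE of 0.0476. The genes beside it did not move with it, since the median log2 fold change of its 40 nearest tested genes was 0.01. Per transcript length, GPNMB went from rank 20 of the 37 members in control cells (18.4 RPKM, CPM divided by the length of the canonical transcript) to rank 6 (64.3 RPKM) in RUNX3 KO cells.

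Among the MITF/TFE factors, MITF rose, TFEB rose less securely and TFE3, which had the most counts of the 3, was not called. MITF, the melanocyte and osteoclast factor (ENSG00000187098, chr3:69788607-70017487 on GRCh37, plus strand), was counted 240 and 227 times in control libraries against 327 and 372 times in RUNX3 KO libraries, or 19.8 ± 0.773 against 29.3 ± 2.29 CPM (SD, n = 2). The groups did not overlap, and the log2 fold change was 0.57 with an SE of 0.0895 (quasi-likelihood test of edgeR, Benjamini-Hochberg adjusted p = 6.79e-08). The count sums all MITF isoforms, which start at separate promoters. TFEB, the best known activator of lysosomal genes, had 64 and 62 counts against 81 and 95, a log2 fold change of 0.47 with an SE of 0.170 (edgeR, adjusted p = 0.0173). The TFEB call did not hold when any library was left out, where the log2 fold change ranged from 0.36 to 0.57, nor with DESeq2, where its adjusted p reached 0.230. TFE3 had 600 and 578 counts against 553 and 539, lower in both RUNX3 KO libraries, with a log2 fold change of -0.12 and a 95% interval of -0.25 to 0.01 (edgeR, adjusted p = 0.108). Per length, TFE3 stood at 15.2 RPKM in control cells, above MITF at 4.12 and TFEB at 2.29, and the order was kept in RUNX3 KO cells at 13.9, 6.11 and 3.16. TFEC, the other gene of the family, had no count in 3 libraries and 1 in the other.

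**Figure D1:**
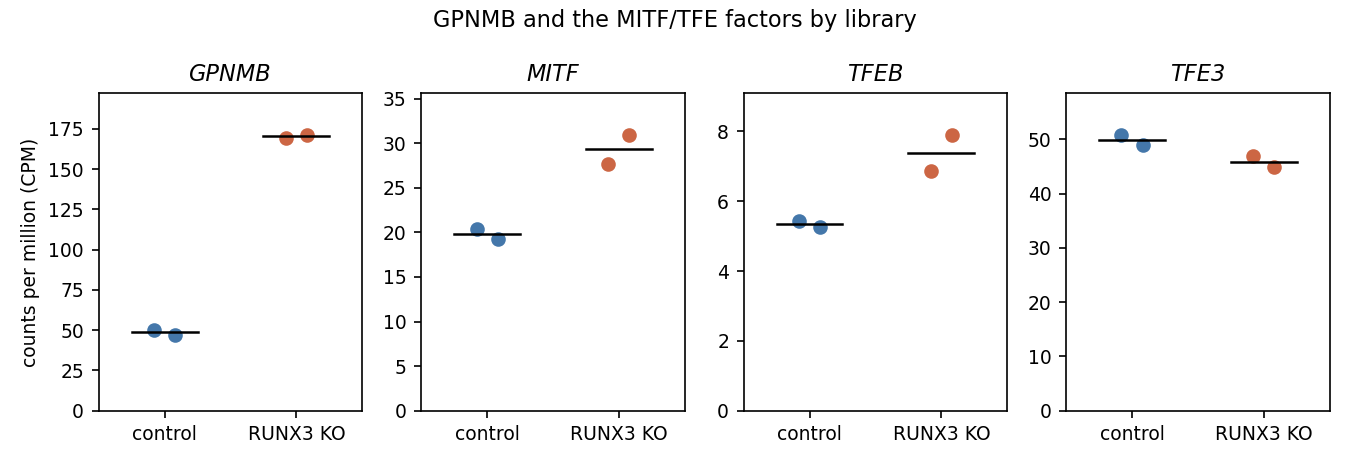
Level of GPNMB, MITF, TFEB and TFE3 in CPM (y axis, from 0, with its own scale in each panel) in the 2 control and 2 RUNX3 KO libraries, where each point is a library and each line the mean of a group. GPNMB went from 48.7 to 170.3 CPM and MITF from 19.8 to 29.3, while both RUNX3 KO libraries lay below both control libraries for TFE3.

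The lysosomal members did not rise together with GPNMB. Of the 35 tested members other than GPNMB, 8 were higher in RUNX3 KO cells, 13 were lower and 14 were not called. Over all 12967 tested genes the same test called 24.5% higher and 24.4% lower, so the 8 members that rose are close to that background and the 13 that fell are a larger share of the members than of all genes. Of the 31 tested lysosomal members alone, without the factors and SQSTM1, 5 (16.1%) were higher and 13 (41.9%) lower. With GPNMB, whose selection fixed its direction, the count of higher members was 9. With DESeq2 the counts were 5 higher and 9 lower, where all tested genes gave 1829 and 1863 in place of 3183 and 3158 with edgeR. Both counts of members also fell when any 1 library was left out. With a 2-fold limit and an unadjusted p up to 0.05 as the rule, 0 of the 35 other members were called in either direction, where all genes gave 2.11% higher and 4.01% lower. The groups did not overlap for 14 of the 35 with RUNX3 KO above and for 17 with RUNX3 KO below, against 36.3% and 36.4% of all tested genes. The changes were small, since 22 of the 35 lay within 1.2-fold of the control level, and the median log2 fold change was -0.04 for the 35 members and 0.00 for all tested genes.

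**Figure D2:**
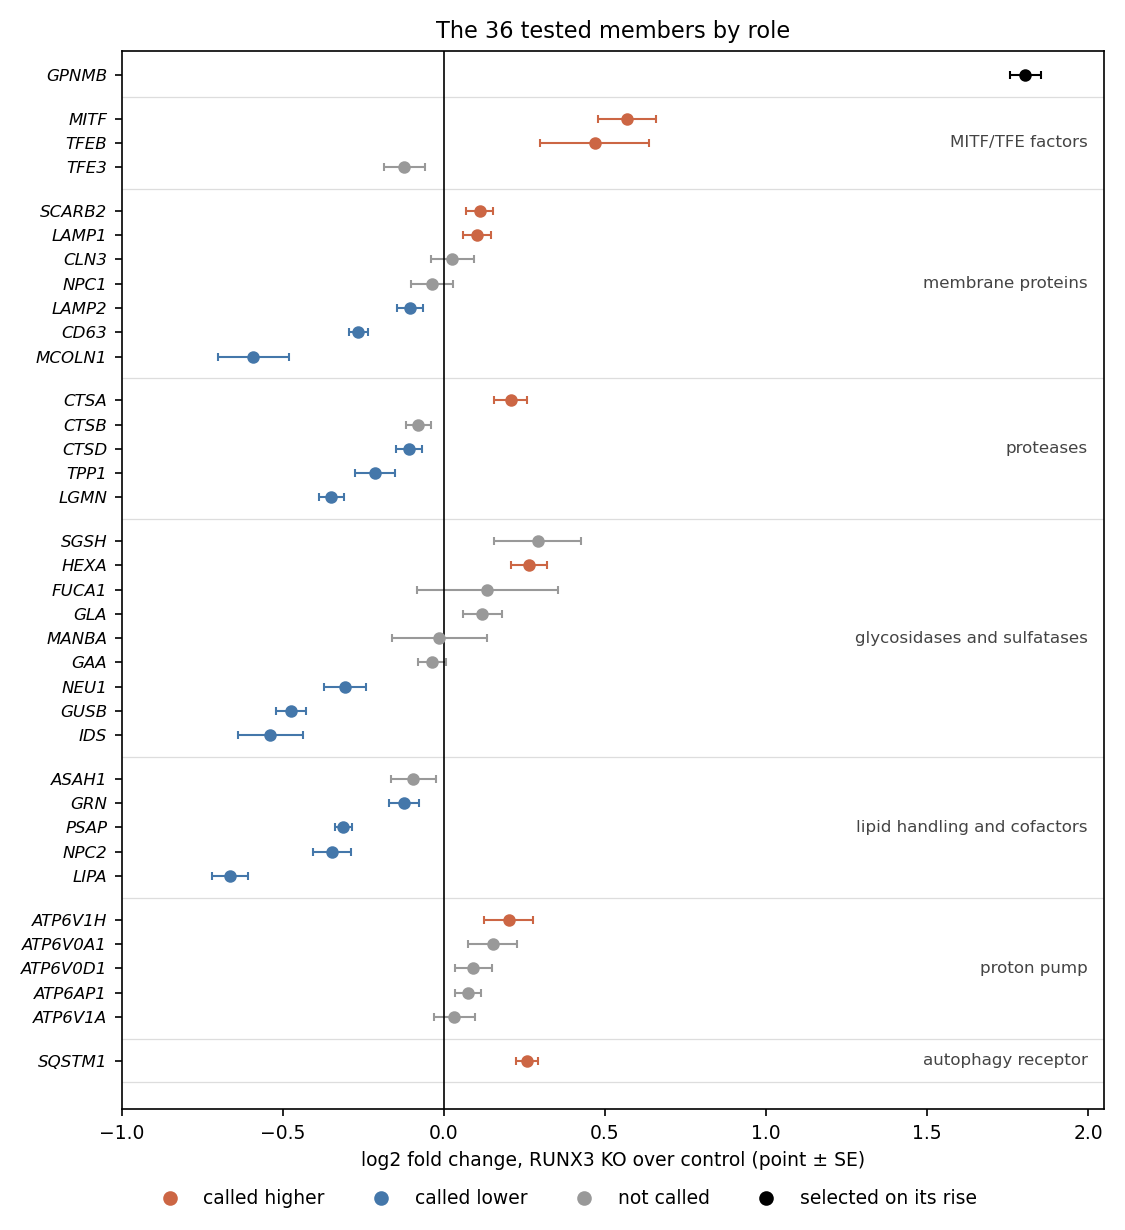
Log2 fold change of RUNX3 KO over control (x axis, point ± SE of the fit, 2 libraries a group) for the 36 tested members, grouped by role and coloured by the call of edgeR's quasi-likelihood test at an adjusted p under 0.05. GPNMB, in black, lies at 1.81, and the other members lie between -0.66 for LIPA and 0.57 for MITF, with the lipid handling members all left of 0 and the proton pump members all right of it.

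Membrane proteins of the lysosome moved both ways, with 2 of 7 higher and 3 lower, where 24.5% of all tested genes were higher and 24.4% lower. MCOLN1, the lysosomal calcium channel TRPML1, fell most, with 244 and 228 counts in control against 180 and 136 in RUNX3 KO libraries, a log2 fold change of -0.59 with an SE of 0.111 (edgeR, adjusted p = 3.73e-06). The 2 RUNX3 KO libraries differed from each other here, and the call was lost without RUNX3 KO replicate 2 (log2 fold change -0.39, adjusted p = 0.0749). CD63, a tetraspanin of late endosomes and the highest member per length at 340.5 RPKM in control cells, fell from 348 ± 3.76 to 289.8 ± 2.17 CPM, a log2 fold change of -0.27 (edgeR, adjusted p = 6.15e-13). LAMP1 and LAMP2, the 2 abundant glycoproteins of the lysosome coat, went apart but only slightly, with log2 fold changes of 0.10 and -0.11 (edgeR, adjusted p = 0.0459 and 0.0247). LAMP1 lost its call under most alternatives and LAMP2 under 5 of the 12 that refit the test. SCARB2, the carrier of glucocerebrosidase, was called at a log2 fold change of 0.11 (edgeR, adjusted p = 0.0220), a call lost under 7 of those 12, and NPC1, the cholesterol exporter, and CLN3 were not called, at -0.04 and 0.03.

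Of the 5 tested proteases, CTSA rose and CTSD, LGMN and TPP1 fell, beside the same 24.5% and 24.4% of all tested genes. CTSA, the protective protein of neuraminidase and beta-galactosidase, had 855 and 926 control counts against 1038 in each RUNX3 KO library, a log2 fold change of 0.21 with an SE of 0.0504 (edgeR, adjusted p = 3.13e-04). Its call was lost when either RUNX3 KO library was left out. LGMN, the asparaginyl endopeptidase that matures cathepsins, fell from 162 ± 2.71 to 127 ± 3.39 CPM, a log2 fold change of -0.35 (edgeR, adjusted p = 9.71e-13). CTSD, the main aspartic protease, and TPP1, a tripeptidase, were called at -0.11 and -0.21, and both calls were lost under several alternatives. CTSB, a cysteine protease, was lower in both RUNX3 KO libraries but not called at -0.08 (edgeR, adjusted p = 0.0872).

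Of the 9 glycosidases and sulfatases, 1 rose, 3 fell and 5 were not called, beside the same shares of all tested genes. GUSB, beta-glucuronidase, had 1338 and 1414 counts against 1023 and 978, a log2 fold change of -0.47 with an SE of 0.0464 (edgeR, adjusted p = 3.00e-15). IDS, iduronate sulfatase, had 271 and 260 against 184 and 185, a log2 fold change of -0.54 (edgeR, adjusted p = 3.21e-06). Both genes have pseudogene copies that may share reads. NEU1, the sialidase held by CTSA, fell from 50.1 ± 0.704 to 40.5 ± 0.363 CPM, a log2 fold change of -0.31 (edgeR, adjusted p = 5.23e-05), so NEU1 and CTSA moved in opposite directions. HEXA, the alpha subunit of beta-hexosaminidase, had 656 and 671 counts against 806 and 803, a log2 fold change of 0.26 (edgeR, adjusted p = 4.46e-05). SGSH (0.29), FUCA1 (0.13), GLA (0.12), MANBA (-0.01) and GAA (-0.04), given as log2 fold changes, did not pass the test. The least counted, FUCA1, had a 95% interval of -0.30 to 0.57, so that a change of its size was not detectable at this depth.

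Of the 5 lipid handling proteins and cofactors, 4 were called lower and none higher, beside 24.4% of all tested genes called lower. LIPA, the acid lipase that frees cholesterol from its esters (ENSG00000107798, chr10:90973326-91174314 on GRCh37, minus strand), fell most of all members, from 939 and 929 counts in control to 578 and 612 in RUNX3 KO libraries, a log2 fold change of -0.66 with an SE of 0.0560 (edgeR, adjusted p = 1.99e-18). PSAP, the precursor of the saposins, fell from 7553 and 7641 to 6077 and 6281 counts, a log2 fold change of -0.31 with an SE of 0.0251 (edgeR, adjusted p = 1.73e-19). NPC2, the soluble partner of NPC1, had a log2 fold change of -0.35 (edgeR, adjusted p = 3.67e-07). GRN, progranulin, was called at -0.12, a call lost under 6 of those 12 alternatives, and ASAH1, acid ceramidase, was lower in both RUNX3 KO libraries but not called at -0.09 (edgeR, adjusted p = 0.283). LIPA shares its annotated span with genes of the IFIT family and NPC2 with ISCA2, and the strand setting of the counting was not given, so that some reads there may belong to the other gene. The spans of MCOLN1, SCARB2, CLN3, CTSA, GLA, SGSH and SQSTM1 overlap other counted genes too.

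Neither the proton pump members nor the autophagy receptor had a lower call, where 24.4% of all tested genes had one. ATP6V1H, a regulatory subunit of the pump's cytosolic part, was called at a log2 fold change of 0.20 (edgeR, adjusted p = 0.0220), a call lost in every fit without 1 library. The other 4, ATP6V0A1, ATP6V0D1, ATP6AP1 and ATP6V1A, lay between 0.03 and 0.15 and did not pass the test. Summed over the 5, the pump came to 305 and 300.3 CPM in control against 323 and 324 in RUNX3 KO libraries, 6.74% more. SQSTM1, the autophagy receptor p62, had 2267 and 2305 counts against 2764 and 2753, a log2 fold change of 0.26 with an SE of 0.0338 (edgeR, adjusted p = 2.78e-10).

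Summed over the 32 lysosomal members, CTSZ included, the level was 3044 and 3063 CPM in control against 2763 and 2747 CPM in RUNX3 KO libraries, a change of -9.78%. PSAP alone carried part of that, and without it the change was -7.21%. The sum leans on the most abundant transcripts, and in bulk RNA a lower level per cell cannot be told apart from fewer cells that express a gene.

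**Figure D3:**
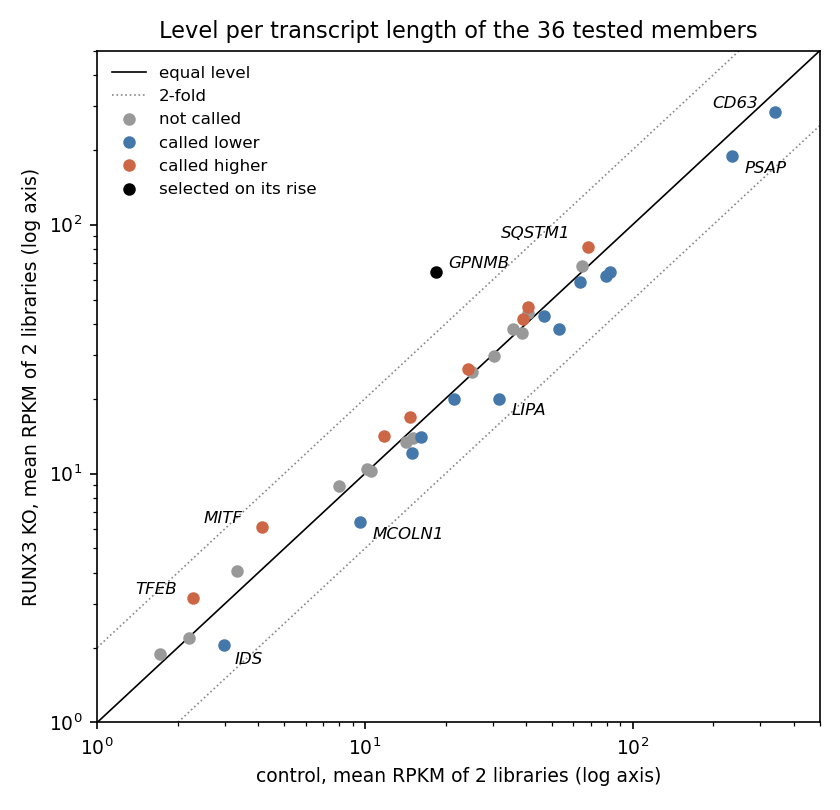
Mean level per transcript length in RPKM in control (x axis) and RUNX3 KO cells (y axis) for the 36 tested members, both axes on a log scale, with a solid line at equal levels and dotted lines at 2-fold changes. GPNMB alone lies beyond the 2-fold line, moving from 18.4 to 64.3 RPKM, and the most abundant members, CD63 and PSAP, lie below the line of equal levels.

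Calls differed in how well they held. Of the 8 members other than GPNMB called higher, 3 (MITF, HEXA and SQSTM1) kept the call under all 12 alternatives that refit the test, and of the 13 called lower, 8 (CD63, LGMN, GUSB, NEU1, IDS, NPC2, PSAP and LIPA) did. Several changes were shared with neighbouring genes. For LGMN and NPC2 on chromosome 14 the log2 fold changes of the 40 nearest tested genes centred on -0.28 and -0.24, and 36 and 31 of them were lower. CD63 on chromosome 12 and HEXA on chromosome 15 had neighbours at -0.17 and 0.18. Taken relative to these medians, LGMN lay at -0.07, NPC2 at -0.11, CD63 at -0.09 and HEXA at 0.08 and each kept its sign. The 4 were the called members, other than GPNMB, whose neighbours had moved by over 0.1 the same way. For LIPA, IDS, PSAP and NEU1 the neighbours lay between 0.01 and 0.03 and for GUSB at -0.05. MITF had neighbours at -0.01 and TFEB at 0.00. The part of such regional changes in the members' values was not tested.

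**Figure D4:**
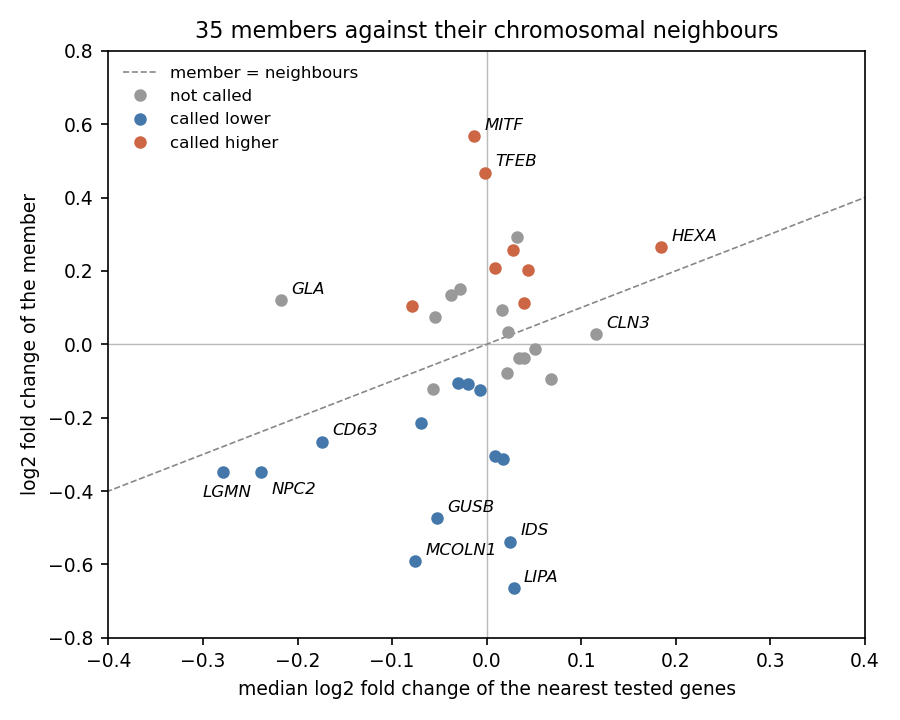
Log2 fold change of each of the 35 tested members other than GPNMB (y axis) against the median log2 fold change of its nearest tested genes, up to 40 (x axis), where the dashed line marks a member that moved as its neighbours did. LGMN, NPC2, CD63 and HEXA lie near the dashed line, while LIPA, IDS, GUSB, MCOLN1, MITF and TFEB lie far from it with neighbours close to 0.

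The promoter sequences were searched on both strands for 4 motifs, CACGTG, its longer form TCACGTGA, CATGTG and TGTGGT. A window of 250 bases before to 50 after the start was given by RefSeq for 27 of the 37 members, 44 windows in all since some genes have several starts. CACGTG stood in 22.7% of the members' windows and in 7.26% of all 35116 windows, and TCACGTGA, each of which contains a CACGTG, in 15.9% and 0.98%. The list of members was drawn up around genes known to be lysosomal, among which the CLEAR element was defined, so this share is given as a description. CATGTG stood in 13.6% of the members' windows and 11.1% of all, and TGTGGT in 6.82% and 13.1%. In the windows of tested genes alone the shares were 9.26% for CACGTG, 1.68% for TCACGTGA, 7.43% for CATGTG and 9.92% for TGTGGT. GPNMB had 2 CATGTG and 1 TGTGGT, printed above as their reverse complements, and no CACGTG. No motif searched was found in the windows of MITF, TFEB or TFE3.

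Members with the TCACGTGA palindrome did not share a direction. The 6 were CTSA (log2 fold change 0.21) and LAMP1 (0.10), called higher, MCOLN1 (-0.59), called lower, and ATP6V0D1 (0.09), CLN3 (0.03) and GAA (-0.04), not called, with a median of 0.06. Of the sequences printed above, MCOLN1 and GAA each hold 2 copies of the palindrome, CTSA 1 and LAMP1 1 among 5 E-boxes. The searched window of LAMP1, which runs past its start, holds a further copy, 2 in all among 6 E-boxes. MCOLN1, LAMP1 and GAA, called lower, called higher and not called in the fit reported, thus carry the same number of copies. The calls of MCOLN1, LAMP1 and CTSA were each lost under some alternatives, as given above, so these calls are not firm. Of the 9 members with any CACGTG, 2 were higher, 4 lower and 3 not called, where all tested genes gave 24.5% higher and 24.4% lower. CATGTG was found for GPNMB, which was selected on its rise. It was also found for CTSA and SCARB2, called higher, and for CD63, TPP1 and GRN, called lower, beside the same shares of all tested genes. As given above, the calls of CTSA, SCARB2, TPP1 and GRN did not hold under every alternative. A match of letters does not show that a factor binds there.

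The lysosomal genes outside the members also moved both ways. In the lists of other hydrolases, membrane proteins and pump subunits, 79 of 91 genes were tested, of which 12 (15.2%) were higher and 21 (26.6%) lower, against 24.5% and 24.4% of all tested genes, and the log2 fold changes had a median of -0.03. Those counts were 7 and 13 with DESeq2, which called 1829 of the 12967 genes higher and 1863 lower, fewer than edgeR. Leaving out either RUNX3 KO library also gave fewer calls. Among the hydrolases, 7 of 38 were higher and 13 lower. CTSC, which activates serine proteases of granules, had 1479 and 1462 counts in control and 2301 and 2350 in RUNX3 KO libraries, a log2 fold change of 0.65 (edgeR, adjusted p = 9.55e-28). CTSV, a cathepsin close to CTSL, rose by 0.87 on the log2 scale (edgeR, adjusted p = 4.60e-12). Its chromosome 9 neighbours had a median of 0.22, which leaves 0.65. Membrane proteins had 3 of 26 higher and 6 lower, and pump subunits 2 of 15 each way. Among genes that sort enzymes to the lysosome, 3 of 9 were higher and 4 lower, with GGA1 at -0.63 (edgeR, adjusted p = 2.12e-16) beside chromosome 22 neighbours at -0.49.

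**Figure D5:**
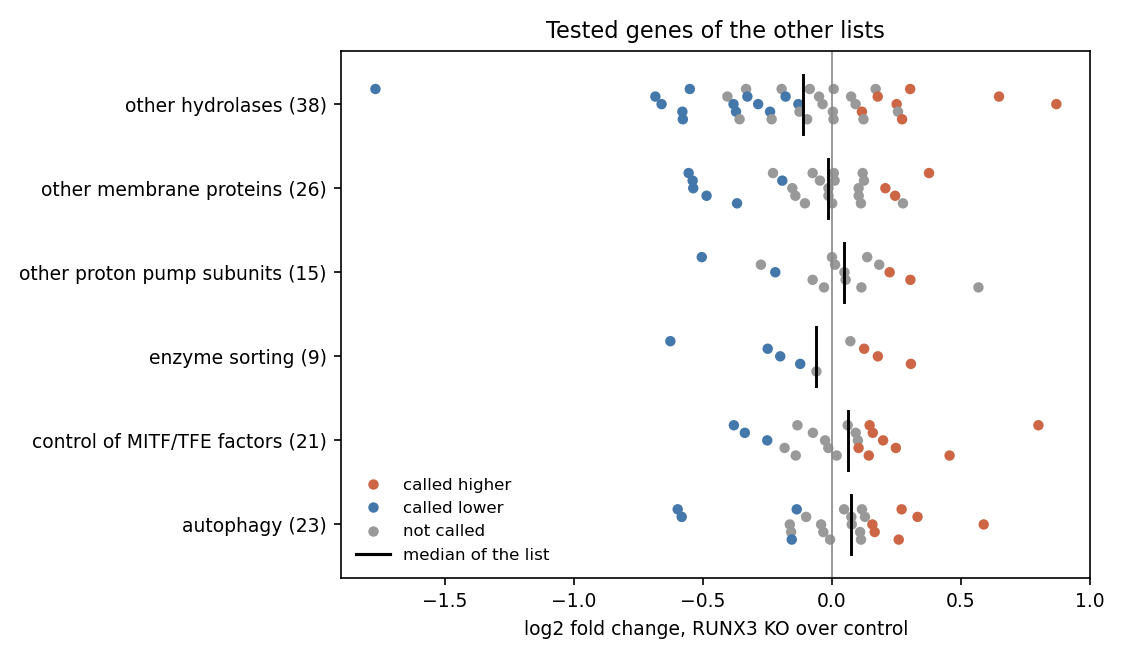
Log2 fold change of RUNX3 KO over control (x axis) for the tested genes of 6 lists that are not members, where each point is a gene coloured by its call, the black bar is the median of a list and the number of tested genes follows its name. The medians lie between -0.11 for the other hydrolases and 0.08 for autophagy, and the lowest point, at -1.77, is the hydrolase NAAA, pointed out after its value was seen, with counts of 16, 15, 5 and 4.

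Genes that control the MITF/TFE factors also moved both ways. Of 21 tested genes of mTORC1 signalling on the lysosome and of calcineurin, 8 (38.1%) were higher and 3 (14.3%) lower, against 24.5% and 24.4% of all tested genes, around a median of 0.06 (log2 fold change). FLCN and its partners FNIP1 and FNIP2, which restrain TFE3 and TFEB, were not called (edgeR, adjusted p = 0.421, 0.853 and 0.170). RRAGA, a Rag GTPase, had 440 and 461 counts against 805 and 779, a log2 fold change of 0.80 (edgeR, adjusted p = 4.64e-20), and its 40 neighbours on chromosome 9 had a median of 0.83, leaving -0.03. RRAGB fell, to a log2 fold change of -0.34 (edgeR, adjusted p = 0.0239), and RRAGC and RRAGD were not called. The autophagy list had 6 of 23 higher (26.1%) and 4 lower (17.4%), near the shares of all tested genes, among them ULK2 at 0.59 and ULK1 at -0.60 (edgeR, adjusted p = 1.47e-04 and 2.86e-04), kinases of the same family that moved in opposite directions. CD44, a surface receptor that GPNMB is known to bind, fell from 1266 and 1221 counts to 129 and 125, a log2 fold change of -3.30 (edgeR, adjusted p = 9.96e-58), while ADAM10, the protease that sheds GPNMB, rose from 81.9 ± 1.10 to 102 ± 7.27 CPM, a log2 fold change of 0.32 (edgeR, adjusted p = 1.74e-08). The neighbours of ADAM10 had a median of 0.25, which leaves 0.07.

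Most markers of the cell types best known for GPNMB were at or near 0, and the 2 melanocyte markers with enough counts to test went in opposite directions. Of 12 markers of macrophages and osteoclasts, 5 were at 0 in all libraries and CTSK alone passed 10 counts, and the list summed to 3.05 and 3.64 CPM in control and to 3.73 and 2.66 CPM in RUNX3 KO libraries. Of 9 melanocyte markers, TYR, MLANA, SLC45A2, TRPM1 and SOX10 were at 0 throughout. DCT, a pigment enzyme and known MITF target, fell from 79 and 98 counts to 7 and 9, a log2 fold change of -3.46 (edgeR, adjusted p = 1.94e-19). The part of MITF in the level of DCT was not tested. PMEL, the melanosome protein closest to GPNMB, had 17, 8, 4 and 7 counts and was not tested. OCA2 had 25 and 28 counts against 40 and 64, a log2 fold change of 0.96 (edgeR, adjusted p = 5.93e-04). Its chromosome 15 neighbours had a median of 0.23, which leaves 0.72.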

How the data were processed

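RNA-seq of poly(A) RNA was carried out on HGC27 cells, 2 control and 2 RUNX3 KO libraries. The authors deposited raw counts of reads per gene symbol, without normalization, as 1 table per library. Per the labels, reads were aligned to hg19 with HISAT2 2.1.0 and counted with HTSeq, whereas the paper names STAR and featureCounts. The labels and the paper also differ on medium and RNA extraction, and no strand setting is given in the sources used here. Between 25.9% and 28.1% of counts had no gene and entered neither library sizes nor tests.

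Groups were taken from the labels. The tests used edgeR 4.0.16 in R 4.3.3. filterByExpr (minimum count 10, minimum total 15) kept 12967 genes, libraries were scaled by TMM, and control and RUNX3 KO were set against each other by the quasi-likelihood test of edgeR (prior count 0.125) with Benjamini-Hochberg adjustment over all tested genes at 0.05, two-sided. The biological coefficient of variation was 1.45%. An exact two-sided permutation of 2 against 2 libraries cannot go below p = 0.333 and was not used. Counts between libraries of a group differed by more than sampling noise only slightly (chi-square per degree of freedom 1.22 and 1.18). With the depth above, genes of few counts are imprecise. Standard errors and intervals (95%) cover the spread between these libraries. Positions and canonical transcript lengths are GENCODE v44 on GRCh37. Promoters are RefSeq on GRCh38.p14, with no window used for 10 members. The script was tested on simulated data.

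The members and lists were chosen with earlier results of these data known. Named are all members, RUNX3 and cell type markers where they bear on a result. Per other list, up to 4 genes in each direction are named that were called, changed at least 1.5-fold, had a mean of at least 50 counts and groups that did not overlap. Genes named outside this rule (ADAM10, FLCN, FNIP1, FNIP2, RRAGB, RRAGC, RRAGD and TFEC) are given for their role, and LAMTOR5 and NAAA for their values. A gene that the rule would name is not reported here. Alternatives were 3 other scalings, DESeq2 1.42.0, limma-voom (limma 3.58.1), 2 other filters, a prior count of 2, a replicate block, leaving out each library, and subtracting the median of the 40 nearest tested genes.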

Additional observations from a re-analysis of the deposited data

How the results depend on the processing

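GPNMB stayed the 1 member at least 2-fold higher, and 0 members were at least 2-fold lower, in the fit reported and every alternative, and no called member changed sign under any of them. The DESeq2 test called 5 members higher (9 with edgeR) and 9 lower (13), and among the other lysosomal genes 7 higher (12) and 13 lower (21). With no filter on low counts, 7 members were higher and 9 lower, where all 17650 genes gave 2447 and 2464. Leaving out 1 library at a time gave 4 to 6 members higher, 8 to 10 lower (13 with all libraries), 3 to 13 other lysosomal genes higher and 9 to 19 lower, a GPNMB log2 fold change of 1.76 to 1.85, and a median of the members of -0.05 to 0.01. Such fits leave 1 library in a group, which is assumed to vary like the other group, so lost calls also come from fewer libraries. Over all genes, 3183 were higher and 3158 lower, against 1829 and 1863 with DESeq2, 1483 and 1531 without RUNX3 KO replicate 1, and 1285 and 1378 without RUNX3 KO replicate 2. Subtracting the median of the 40 nearest tested genes put the median log2 fold change of the 36 members at -0.0683 in place of -0.02. Library size alone and upper-quartile scaling shifted the median of all genes by -0.02 each. Deviations of libraries with the same replicate number were hardly correlated (0.0257). The crossed value, -0.0257, is its negative by construction and adds nothing. With a replicate block 9 members were higher and 13 lower, as without it. Standard errors were largest for members of few counts, such as FUCA1 and TFEB.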
